A study of Mus musculus with 12 samples.

Results

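The members are 82 of the 23183 gene symbols in the tables, chosen by symbol alone: Nduf with a subunit letter and number, Sdha to Sdhd, Uqcr, Cox4 to Cox8 with a letter from a to c, and Atp5. They encode the nuclear part of the mitochondrial respiratory chain and ATP synthase. The rule itself uses no expression value, but the set was proposed with earlier results of these data known. By complex they divide into 35 genes of complex I, 4 of complex II, 8 of complex III, 18 of complex IV and 17 of complex V. Ndufa4 and its paralog Ndufa4l2, first assigned to complex I, were counted with complex IV, and Atp5s and Atp5sl match the symbol rule without being subunits of the enzyme. Cox4i1, Cox4i2, Cyc1 and a few other subunits fall outside the rule and are given apart. The subunits encoded by mitochondrial DNA were not analysed here.

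The study asked what happens in the brain long after X-rays to the abdomen of the mouse, a model of lasting radiation injury to the gut. RNA came from male C57BL/6 mice: 3 were irradiated over the abdomen, with 13 Gy given in the library names, and 3 were not irradiated. Hippocampus and prefrontal cortex were taken from every mouse, so that 12 libraries form 4 groups of 3, and libraries with the same number in a treatment come from the same mouse. No genetic change, drug or other treatment is named for any group, and the sources used here give neither the age of the mice nor the time after irradiation. Below, 3 values in a row are those of mice 1, 2 and 3 of a treatment.

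The respiratory chain sits in the inner mitochondrial membrane. Complex I takes electrons from NADH and complex II from succinate, complex III passes them from ubiquinol to cytochrome c, complex IV hands them to oxygen, and complexes I, III and IV pump protons that drive ATP synthase, complex V. Neurons draw most of their ATP from this chain, and most subunits are small accessory proteins around a few catalytic ones. Nuclear subunit genes are known to share regulators, among them NRF1 (nuclear respiratory factor 1), which binds a palindromic GC-rich site in many of their promoters, ETS-family factors and YY1.

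Promoters of 69 of the 82 members were found in RefSeq (GRCm38.p6), each a window of 300 bases around the start of the gene. The NRF1 core GCATGCGC, searched on both strands, was present in 10 of the 69 genes (14.5%), against 3.05% of all 27025 genes with such a window. The ETS core CCGGAAG stood in 16 of 69 (23.2%, against 9.93%) and the YY1 core AAGATGG in 12 of 69 (17.4%, against 7.28%). These are matches of letters, not measured binding. Shown here, picked for holding the NRF1 core on both strands, are 180 bases before the start of Atp5k, Atp5g2 and Cox6a1, which are among the genes described below, and of Ndufa11, the member of complex I with the lowest level. Of the other genes with the smallest p-values below, the windows of Cox7a2, Ndufa1 and Ndufb4 held none of the motifs, that of Cox8a the ETS core, those of Atp5j the ETS and YY1 cores, and that of Uqcr11 the NRF1 and ETS cores. They are written 5′ to 3′ on the strand of the gene. Capitals mark the overlapping pair of NRF1 cores, one on each strand, and in Cox6a1 also the ETS core on the opposite strand. The window of Atp5k held an ETS core too, outside the bases shown. Atp5k lies at chr5:108434400-108434579 on the minus strand, Atp5g2 at chr15:102671048-102671227 on the minus strand, Cox6a1 at chr5:115348959-115349138 on the minus strand and Ndufa11 at chr17:56717582-56717761 on the plus strand.
Atp5k: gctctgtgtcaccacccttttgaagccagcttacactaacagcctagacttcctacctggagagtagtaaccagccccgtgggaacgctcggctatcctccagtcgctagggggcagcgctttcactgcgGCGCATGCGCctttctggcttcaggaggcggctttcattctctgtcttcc
Atp5g2: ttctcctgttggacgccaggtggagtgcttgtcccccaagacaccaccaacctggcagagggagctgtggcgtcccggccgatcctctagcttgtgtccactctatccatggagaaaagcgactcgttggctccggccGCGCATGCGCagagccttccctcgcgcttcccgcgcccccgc
Cox6a1: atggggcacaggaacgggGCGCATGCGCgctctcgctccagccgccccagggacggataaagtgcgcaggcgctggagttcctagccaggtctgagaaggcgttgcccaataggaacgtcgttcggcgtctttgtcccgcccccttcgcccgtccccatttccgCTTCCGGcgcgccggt
Ndufa11: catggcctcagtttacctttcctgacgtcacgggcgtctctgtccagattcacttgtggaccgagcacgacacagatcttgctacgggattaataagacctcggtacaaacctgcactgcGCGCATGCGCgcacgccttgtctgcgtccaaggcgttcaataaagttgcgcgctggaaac

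The tables hold 1 value per gene and library, read here as FPKM, a count of fragments scaled by transcript length and by the mapped total of the library. Relative depth ran from 0.855 to 1.04 over the libraries, and between 12640 and 12967 genes reached 1 FPKM. Marker lists of hippocampal subfields and cortical layers followed the region labels. The summed FPKM of 8 genes of hippocampal subfields was 232.9 to 273.6 in hippocampus and 77.8 to 91.1 in prefrontal cortex. That of 8 genes of cortical layers was 86.8 to 112 and 192 to 234. The sum of 9 markers of striatal neurons was 758 to 979 in prefrontal cortex and 66.5 to 116 in hippocampus. The part of striatal tissue in the prefrontal cortex samples was not tested. The sum of 15 choroid plexus markers, the vascular tissue that secretes cerebrospinal fluid, was 3191, 67.7 and 4729 in hippocampus of irradiated mice and 5952, 4775 and 3799 in controls. Most of each sum was the level of 1 gene, Ttr, at 2974, 52.1 and 4453 against 5625, 4509 and 3596 FPKM. Folr1 (29.6, 1.03 and 34.4) and Kl (38.6, 5.60 and 43.8) were also lowest in irradiated mouse 2. The hippocampus library of irradiated mouse 2 therefore stood apart in that list. Cox8b, Cox6b2 and Cox7a1 of complex IV are set beside these markers below, and the part of choroid plexus in them was not tested. In bulk tissue, fewer cells of a type and less RNA per cell cannot be told apart.

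The respiratory chain genes were abundant in both regions. Of the 82 members, 63 had a mean of at least 100 FPKM over all libraries, and together they made up between 3.67% and 5.22% of a library's summed FPKM. FPKM is a level per transcript length, so levels can be set beside each other between genes. The highest level in complex V was that of Atp5k (subunit e, in the membrane part, which joins the enzyme into dimers), with a mean of 854 FPKM. The highest in complex IV was Cox8a (the widely expressed form of subunit 8) with 943, in complex I Ndufa3 (an accessory subunit of the membrane arm) with 528, in complex III Uqcr11 (a small accessory subunit) with 399.9, and in complex II Sdha (the flavoprotein that oxidises succinate) with 152. At the other end, 11 members had a mean under 40 FPKM. Cox8c, the testis form of subunit 8, was listed at 0 in every library, and Cox7b2, a paralog of Cox7b, lay between 0 and 1.24 FPKM. These 2 were below the mean of 1 FPKM needed for a test, which left 80 members tested in each comparison.

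Summed over all members, FPKM in hippocampus was 17624, 16329 and 20191 in irradiated mice and 22741, 20137 and 19498 in controls, with means of 18048 ± 1966 and 20792 ± 1718 (SD, n = 3). In prefrontal cortex it was 17778, 14015 and 17857 against 19699, 18089 and 19209, with means of 16550 ± 2196 and 18999 ± 825. In hippocampus the groups overlapped, since irradiated mouse 3 was above control mice 2 and 3. In prefrontal cortex every irradiated library was below every control library, with irradiated mouse 2 far below the others. The lower sums were seen in complexes I, III, IV and V. The sum of complex II was 433 ± 22.9 against 454 ± 23.2 in hippocampus and 423 ± 36.7 against 423 ± 11.8 in prefrontal cortex.

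**Figure D1:**
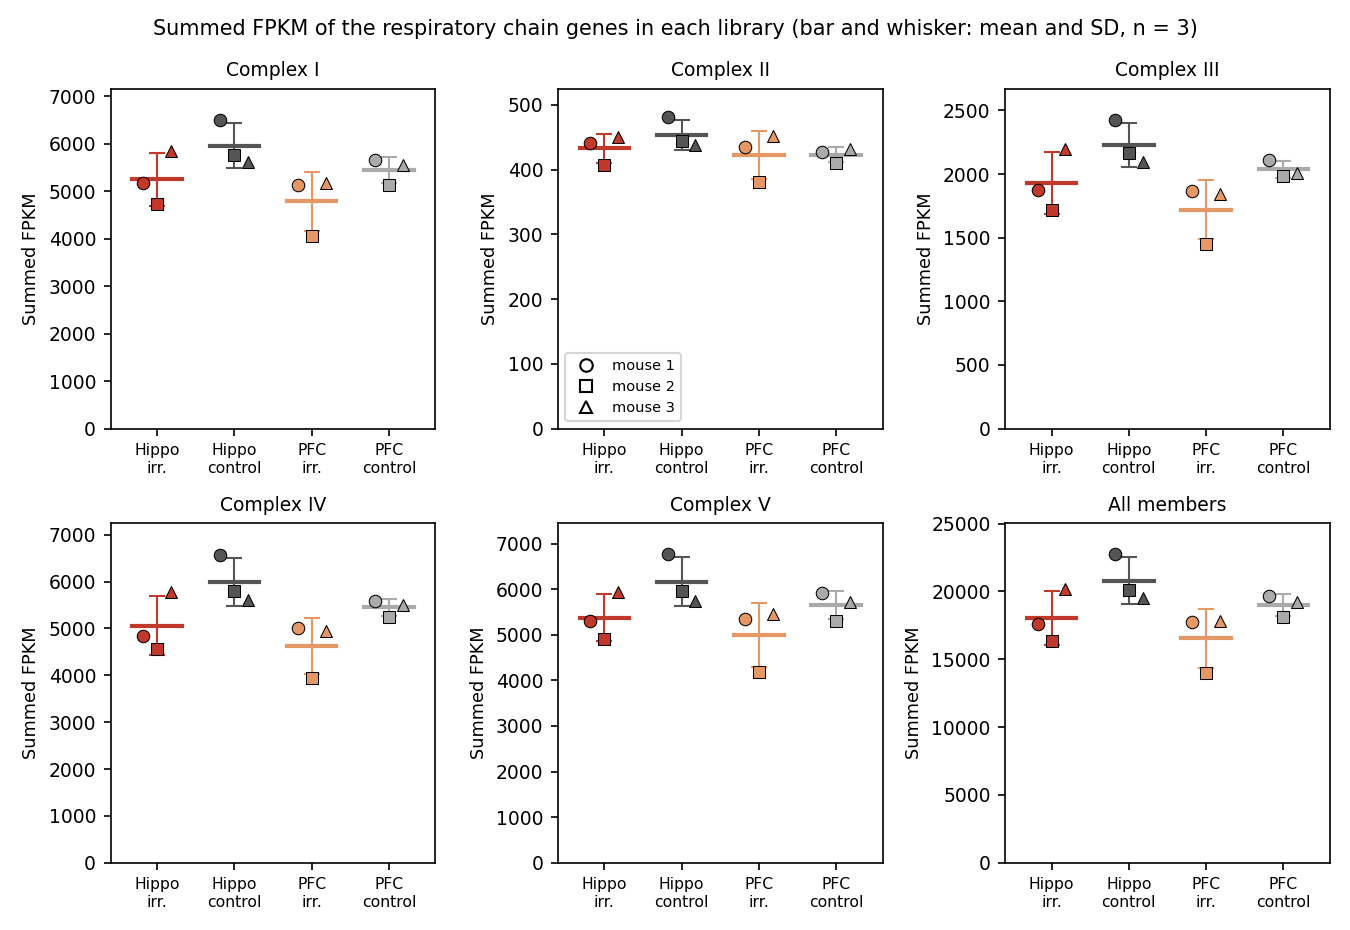
Summed FPKM of the members of each complex and of all members, for each library. The horizontal axis gives the groups (Hippo, hippocampus; PFC, prefrontal cortex; irr., irradiated), symbols the mouse, bars the mean and whiskers the SD (n = 3). Irradiated mouse 2 is the lowest library of its region in every panel, and for all members it reaches 16329 in hippocampus and 14015 in prefrontal cortex.

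Tests were run with limma on log2(FPKM + 1) over all genes averaging 1 FPKM or more, with p-values adjusted over all of them (Benjamini-Hochberg) and a threshold of 0.05. Differences below are irradiated minus control on that scale, with their SE. Within a region the replicates are separate mice. With 3 per group the p-values set a difference against the spread between these few mice, moderated by limma over all genes. The comparisons that use both regions treat the libraries of a mouse as independent in the main fit.

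In hippocampus no respiratory chain gene passed the test, yet nearly all lay on one side. The difference was negative for 77 of the 80 members and positive for Ndufa10, Ndufa4l2 and Ndufs5. The median of the members was -0.17, against -0.01 for all 12947 genes tested. At an adjusted p under 0.05, 0 of 80 members were called, as were 0 of 12947 genes (0.0%), and the smallest adjusted p of a member was 0.475. At an unadjusted p under 0.05, 17 of 80 members were lower (21.2%), against 5.81% of all genes, and 0 were higher, against 4.7%. In 6 members every irradiated library was below every control library (7.5%, against 8.16% of all genes), a share near the background. In 0 members were the libraries separated the other way (7.41% of all genes).

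By complex, the median difference in hippocampus was -0.18 for complex I, -0.07 for complex II, -0.14 for complex III, -0.22 for complex IV and -0.16 for complex V. With all libraries scaled to equal totals, which moved the median of all genes to 0.07, complex II turned to 0.02 while the others stayed negative, between -0.05 and -0.13. Without irradiated mouse 2 the medians of complexes I to V were -0.10, -0.03, -0.06, -0.16 and -0.08. Of complex I, 33 of 35 members were negative and 6 lower at an unadjusted p under 0.05. Of complex V all 17 members were negative and 5 were lower by that measure, and of complex IV 15 of 16 and 4. In complex II all 4 members were negative, none with an unadjusted p under 0.05, and Sdhc (a membrane anchor with part of the haem and quinone site) had the largest difference, -0.12 ± 0.08.

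**Figure D2:**
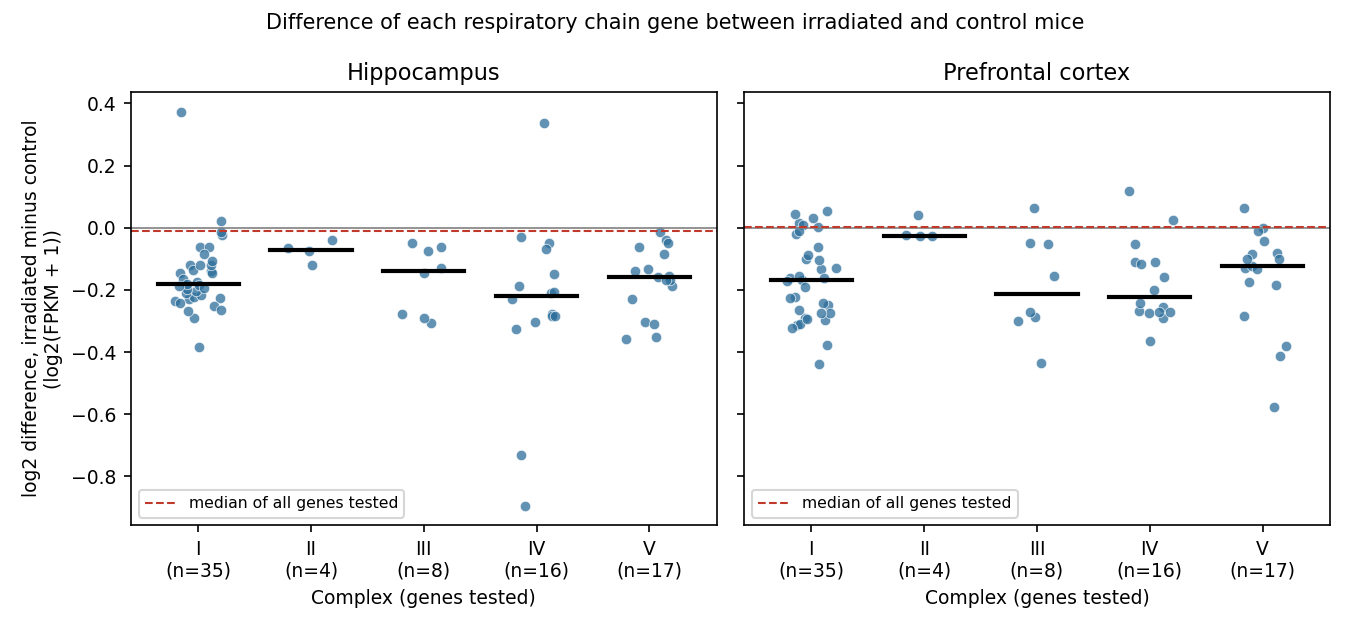
Difference between irradiated and control mice for each tested member, on the log2(FPKM + 1) scale, by complex (horizontal axis), in hippocampus and prefrontal cortex. Points are genes, black bars the median of a complex and the dashed line the median of all genes tested; 77 of 80 members lie below 0 in hippocampus and 69 of 80 in prefrontal cortex, and none passed the test.

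The member with the smallest p in hippocampus was Cox7a2, the liver-type form of subunit 7a of complex IV. Its FPKM was 175, 150 and 193 in irradiated mice and 240, 205 and 204 in controls, without overlap. The difference was -0.33 ± 0.10 (adjusted p = 0.475). Atp5k was at 747, 720 and 886 against 1154, 970 and 901 FPKM, also without overlap, a difference of -0.36 ± 0.12 (adjusted p = 0.475). Its lowest control value lay close above the highest irradiated one.

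Ndufa1, a small accessory subunit of the membrane arm of complex I that is needed for its assembly, had 146, 129 and 179 FPKM in irradiated mice and 230.3, 184 and 178 in controls. Irradiated mouse 3 and control mouse 3 were at nearly the same level. The difference was -0.39 ± 0.13 (adjusted p = 0.475). Cox6a1, the liver-type form of subunit 6a, was at 738, 663 and 807 against 977, 876 and 824 FPKM, without overlap, a difference of -0.28 ± 0.10. Uqcr11 was at 361, 345 and 458 against 516, 451 and 464 FPKM, where irradiated mouse 3 lay above control mouse 2, a difference of -0.31 ± 0.11. Both had an adjusted p of 0.475. In these 5 genes irradiated mouse 3 was the highest of the irradiated libraries and control mouse 1 the highest of all.

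That pattern ran through the whole set. Control mouse 1 had the highest hippocampus value for 67 of 80 members, and irradiated mouse 2 the lowest for 65 of 80. Set against the mean of the controls, the median member was at -0.15, -0.32 and -0.03 in the irradiated mice and at 0.13, -0.04 and -0.08 in the controls, on the log2 scale. Irradiated mouse 3 thus stood within the range of the controls. Without irradiated mouse 2 the median difference of the members was -0.10, and 2 of 80 were lower at an unadjusted p under 0.05, against 3.37% of all genes. Without control mouse 1 it was -0.11, with 0 of 80 (2.40% of all genes). Without irradiated mouse 3 it was -0.24, with 45 of 80 (9.98% of all genes). Of the remaining libraries, that count was 1 without irradiated mouse 1, 7 without control mouse 2 and 22 without control mouse 3, while the share of all genes was 3.15%, 3.78% and 7.25%. The members with every irradiated library below every control library numbered 6 without irradiated mouse 2 (7.5%, against 12.3% of all genes). Without control mouse 1 they numbered 7 (8.75%, against 10.95%). They numbered 12 without control mouse 2 (15%, against 13.1%) and 32 without control mouse 3 (40%, against 17.8%). The sum of 9 oligodendrocyte markers was also lower in irradiated hippocampus, 2182, 2179 and 2297 FPKM against 2753, 2873 and 2346. With all mice, 4 of the 9 were lower at an unadjusted p under 0.05, against 5.81% of all genes. The sum of 8 microglia markers was 178, 177 and 199 against 213, 209.9 and 202, without overlap, with 4 of 8 lower by that measure. Of 5 markers of ependymal cilia 3 were lower, and their sum of 41.8, 35.7 and 59.1 overlapped with 64.4, 54.9 and 56.0 in controls. Of 8 astrocyte markers 2 were lower, with overlapping sums. The sum of 8 endothelial markers was higher, 90.9, 104 and 98.6 against 48.0, 64.3 and 68.1, with 6 of 8 higher by that measure, against 4.7% of all genes. The sum of 10 neuronal markers was 2835, 3021 and 2857 against 2823, 2800.1 and 2983, with the highest value in irradiated mouse 2. The part of these cell types in the differences was not tested.

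In prefrontal cortex no member passed the test either, and most were again negative. The difference was negative for 69 of 80 members and positive for 11, with a median of -0.16 against 0.00 for all genes. At an adjusted p under 0.05, 0 of 80 members were called, while 1 of 12729 genes was (0.00786%), the small nucleolar RNA Snora81, named here after its value was seen. At an unadjusted p under 0.05, 20 of 80 members were lower (25%), against 4.79% of all genes, and 0 were higher, against 2.44%. In 28 members every irradiated library was below every control library (35.0%, against 7.44% of all genes), and in 0 members above (6.25% of all genes).

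By complex, the median difference was -0.17 for complex I, -0.03 for complex II, -0.21 for complex III, -0.22 for complex IV and -0.12 for complex V. With equal totals, complex II was at 0.05 and the others between -0.05 and -0.15, beside a median of all genes of 0.07. Without irradiated mouse 2 the medians of complexes I to V were -0.06, 0.04, -0.05, -0.07 and -0.03. Of complex I 9 of 35 members were lower at an unadjusted p under 0.05, of complex III 3 of 8, of complex IV 4 of 16, of complex V 4 of 17 and of complex II 0 of 4. The share of all genes was 4.79%, and it was higher among all genes with short transcripts, as given below. Within complex V the catalytic subunits of the F1 head had differences near 0: Atp5a1 was at 0.06 ± 0.08 and Atp5b at 0.00 ± 0.08. In complex II, Sdhb (the iron-sulfur subunit) was at 143, 116 and 148 FPKM against 133, 123 and 137, and Sdha at 149.7, 140.4 and 154 against 156, 146 and 149, both with overlap.

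The smallest p belonged to Atp5j, factor 6 of the peripheral stalk of ATP synthase. Its FPKM was 183, 193 and 209 in irradiated mice and 243, 261 and 276 in controls, without overlap, a difference of -0.41 ± 0.08 (adjusted p = 0.325). Ndufa1 was at 129, 102 and 121 against 156, 154 and 167 FPKM, a difference of -0.44 ± 0.09 (adjusted p = 0.339). Cox8a was at 769.9, 755 and 814 against 1019, 995 and 999 FPKM, a difference of -0.37 ± 0.08 (adjusted p = 0.339). In all 3 genes the groups did not overlap.

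Atp5g2, 1 of 3 genes for the c subunit that forms the rotating ring of ATP synthase, was at 135, 156 and 160 FPKM against 181, 204 and 202, a difference of -0.38 ± 0.09 (adjusted p = 0.387). The other c subunit genes encode the same mature protein. Atp5g1 was at 176, 156 and 178 against 197, 175 and 186 FPKM, and Atp5g3 at 383, 297 and 391.7 against 351, 329.9 and 392.4, with differences of -0.13 ± 0.08 and -0.01 ± 0.12. Both overlapped between the groups. Atp5g3 thus had more than the level of Atp5g2 in every library.

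Ndufb4, an accessory subunit of the membrane arm of complex I, was at 206, 204 and 219 FPKM against 248, 261 and 280, a difference of -0.32 ± 0.08 (adjusted p = 0.391). Atp5k had the largest difference of the members, -0.58 ± 0.17 (adjusted p = 0.476), with 765, 479.8 and 727 against 1046, 847 and 999 FPKM. Uqcr11 was at 353, 262 and 325 against 459, 396 and 408 FPKM, a difference of -0.43 ± 0.12 (adjusted p = 0.458). In both, irradiated mouse 2 was the lowest library, and the groups did not overlap.

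**Figure D3:**
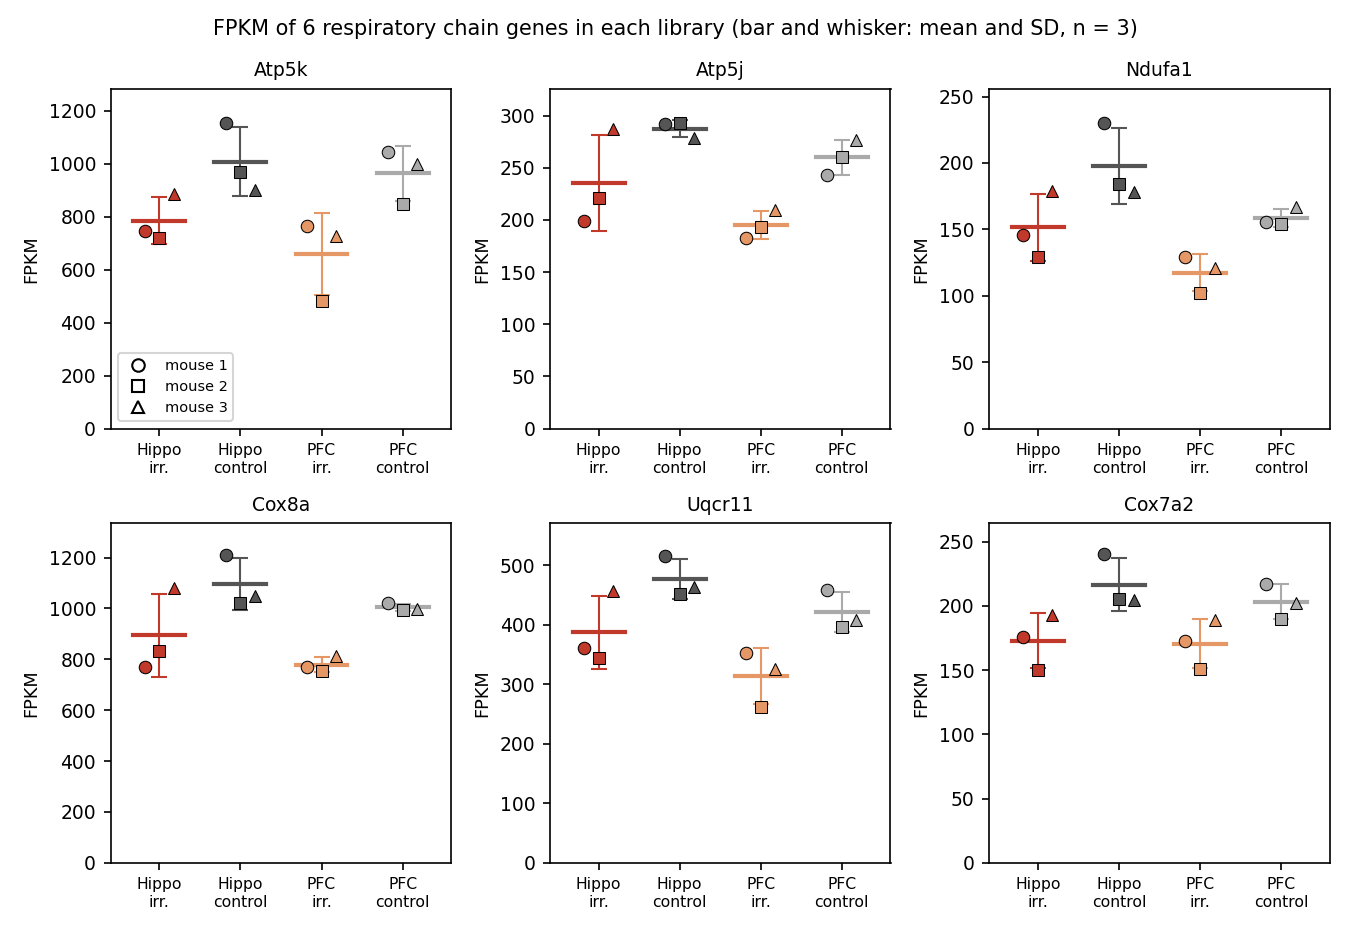
FPKM of 6 members in each library, with groups on the horizontal axis as Hippo (hippocampus) and PFC (prefrontal cortex), symbols for the mouse, bars for the mean and whiskers for the SD (n = 3). In prefrontal cortex the irradiated libraries of all 6 genes lie below the controls; in hippocampus this holds for Atp5k and Cox7a2, and for neither gene did the adjusted p fall below 0.475 there.

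Irradiated mouse 2 had the lowest prefrontal cortex value for 69 of 80 members, as it had in hippocampus for 65. Set against the mean of the controls, the median member was at -0.05, -0.35 and -0.06 in the irradiated mice and at 0.05, -0.07 and 0.03 in the controls. Without irradiated mouse 2 the median difference was -0.04, and 53 of 80 members were negative. Of the 20 members lower at an unadjusted p under 0.05 with all mice, 17 were so without that mouse, and 0 others were, against 4.02% of all genes. Without it, every irradiated library was below every control library in 28 members (35.0%, against 11.8% of all genes) and above in 9 (11.2%, against 11.8%). Without that mouse the difference was -0.41 for Atp5j and for Atp5g2, -0.34 for Ndufa1 and for Cox8a, -0.30 for Ndufb4, -0.36 for Atp5k and -0.31 for Uqcr11. Endothelial markers summed to 105, 106 and 117 FPKM in irradiated prefrontal cortex and 82.9, 92.2 and 93.9 in controls, and oligodendrocyte markers to 1661, 1514 and 1607 against 1749, 1875 and 1920.3. Their part in the differences was not tested.

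The regions were compared in their response next. The difference was negative in both regions for 67 of 80 members, and positive in both for Ndufa10 alone. In 2 members, Atp5k and Cox7a2, every irradiated library was below every control library in each region (2.5%, against 1.07% of all genes tested in both). For Cox7a2 prefrontal cortex values were 172, 151 and 189 against 217, 189.8 and 202 FPKM. The test of the difference between the regional effects (hippocampus minus prefrontal cortex, all 12 libraries) called 0 of 80 members and 0 of 12894 genes (0.0%). At an unadjusted p under 0.05 it held 0 members and 422 genes (3.27%). The median over the members was 0.00, with 40 positive and 40 negative. Single libraries turned this balance: the median was -0.11 with 62 negative without irradiated mouse 2 in prefrontal cortex, 0.07 with 24 negative without irradiated mouse 2 in hippocampus, and -0.08 with 68 negative without irradiated mouse 3 in hippocampus. When the values of both regions were averaged per mouse, 29 of 80 members were lower at an unadjusted p under 0.05 (36.2%), against 6.07% of all genes, and 0 were higher (4.04% of all genes). That fit was added after seeing the data and was run in the main setting alone, with irradiated mouse 2 included. It called 0 members and 1 of 12894 genes (0.00776%), the RNA of RNase MRP, Rmrp (named after its value was seen). The median of the members was -0.16.

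Among the 5 members with the smallest p for a regional difference, none passed, with adjusted p-values near 1. Ndufs5, an accessory subunit of complex I, was at 64.7, 65.8 and 64.0 FPKM in irradiated hippocampus and 43.0, 75.1 and 38.2 in controls. In prefrontal cortex it was at 46.6, 46.8 and 34.4 against 48.3, 42.3 and 48.3, so that its difference of 0.37 ± 0.21 in hippocampus came with a wide spread between control mice. It shares long stretches of sequence with 1 pseudogene, so reads may have been divided between the copies. Ndufs4, an accessory subunit whose loss impairs complex I, was at 34.7, 31.4 and 35.6 against 42.6, 36.1 and 37.0 FPKM in hippocampus and 37.8, 31.3 and 39.6 against 38.6, 36.4 and 34.9 in prefrontal cortex. Its hippocampus values did not overlap, and its prefrontal cortex values did.

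Members with short transcripts had the more negative differences. Of the 80 tested, 53 have a median transcript length under 1000 bases, and their median difference was -0.21 in hippocampus and -0.23 in prefrontal cortex. The 27 longer members were at -0.08 and -0.03. The same split was seen in all genes: those with transcripts under 1000 bases were at -0.14 and -0.13 and longer ones at 0.00 and 0.01. In the short class, 15 of 53 members (28.3%) were lower in hippocampus at an unadjusted p under 0.05, against 216 of 1135 genes (19.0%), and in prefrontal cortex 18 of 53 (34.0%) against 229 of 1101 (20.8%). Across the 80 members the difference and the log2 of the transcript length had a Pearson r of 0.46 and a Spearman rho of 0.59 in hippocampus, and 0.52 and 0.50 in prefrontal cortex; genes of a library share its depth and preparation, and no p is given. When the trend of the values with length was removed from each library, the median of the members was -0.06 in hippocampus, with 68 of 80 negative. At an unadjusted p under 0.05, 5 of 80 were lower there, near the 5.21% of all genes. In prefrontal cortex the median was -0.03, with 49 negative and 8 lower (3.85% of all genes). By complex, I to V, the medians were then -0.07, -0.03, -0.03, -0.10 and -0.04 in hippocampus and -0.06, 0.01, -0.05, -0.05 and -0.01 in prefrontal cortex. The named genes shrank too. Atp5k went to -0.14 in hippocampus and -0.26 in prefrontal cortex, Uqcr11 to -0.13 and -0.21, and Ndufa1 to -0.20 in both. Cox7a2 and Cox6a1 were at -0.20 and -0.13 in hippocampus. In prefrontal cortex Atp5j was at -0.29, more than Atp5k, with Ndufb4 at -0.24, Atp5g2 at -0.22 and Cox8a at -0.19. With equal totals the members were at -0.08 in both regions, with 58 of 80 negative and 7 lower by that measure in hippocampus (1.85% of all genes) and 57 and 17 in prefrontal cortex (2.40%). By library, all genes with short transcripts stood at -0.15, -0.23 and -0.03 in irradiated hippocampus relative to the controls and at -0.06, -0.26 and -0.06 in irradiated prefrontal cortex, with irradiated mouse 2 lowest in each region, as for the members.

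**Figure D4:**
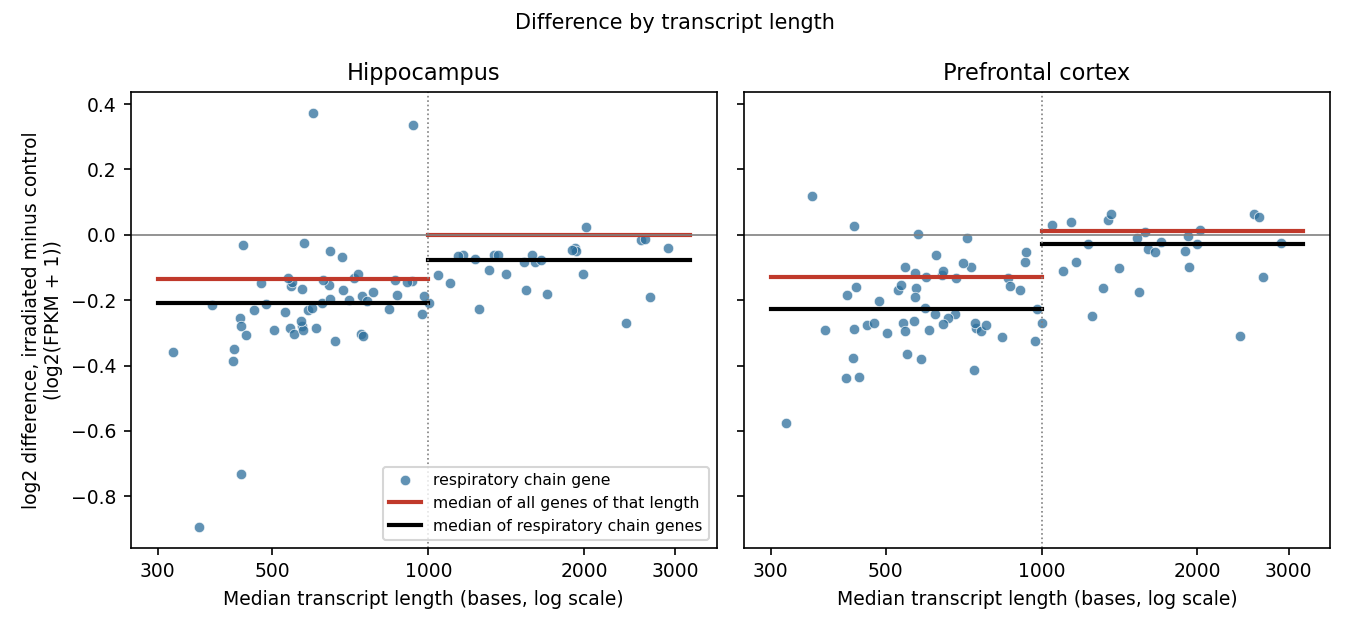
Difference between irradiated and control mice (log2(FPKM + 1), vertical axis) against the median transcript length (bases, log scale) for the tested members in each region. Black lines are medians of the members below and above 1000 bases, red lines those of all genes of that length; in hippocampus short members stand at -0.21 and all short genes at -0.14.

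Complex IV is the part of the chain with tissue forms, and it held the largest differences between the regions. Among control mice, 9 of 80 members were higher in hippocampus (adjusted p under 0.05; 15.7% of all genes) and 1 was lower (14.6% of all genes), so that the count was below the background. The median of the members was 0.12 (hippocampus minus prefrontal cortex), with 72 positive. It was 0.05 with 24 negative without control mouse 1 in hippocampus, and 0.05 with 26 negative when the trend with length was removed. Cox8b, the heart and muscle form of subunit 8, was at 34.4, 29.2 and 25.1 FPKM in control hippocampus and 1.47, 0 and 2.87 in control prefrontal cortex, a difference of 3.84 ± 0.40 (adjusted p = 9.8e-05). Cox6b2, the testis form of subunit 6b, was at 22.8, 17.6 and 10.7 against 2.71, 2.00 and 5.09, a difference of 2.08 ± 0.29 (adjusted p = 0.000594). Cox7a1, the heart and muscle form of subunit 7a, was at 12.8, 10.8 and 7.96 against 6.13, 4.97 and 5.32, a difference of 0.81 ± 0.15 (adjusted p = 0.00275). All 3 were separated between the regions in every control library.

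In irradiated hippocampus the levels of these forms had the same order of mice as the choroid plexus markers. Cox8b was at 24.4, 3.48 and 37.2 FPKM there, Cox6b2 at 11.2, 4.50 and 15.8, and Cox7a1 at 8.99, 6.84 and 16.5. Each was lowest in mouse 2 and highest in mouse 3, as was the sum of the 15 choroid plexus markers. The order was not particular to choroid plexus: the sum of 5 markers of ependymal cilia (41.8, 35.7 and 59.1 FPKM) and that of all members had it too. Their differences from control hippocampus were -0.89 ± 0.68, -0.73 ± 0.41 and -0.03 ± 0.28, and none passed the test. Without irradiated mouse 2 the difference of Cox8b was 0.04. In prefrontal cortex choroid plexus markers summed to between 4.62 and 6.56 in 5 libraries and to 67.6 in control mouse 3, with Ttr at 58.1. That library had the highest prefrontal cortex values of Cox8b and Cox6b2. Among control mice 15 of 15 choroid plexus markers were higher in hippocampus at an unadjusted p under 0.05, against 20.9% of all genes. So were 5 of 5 markers of ependymal cilia, 9 of 9 of oligodendrocytes and 6 of 8 of astrocytes. Of neurons it was 1 of 10, of endothelium 0 of 8 and of striatal neurons 0 of 9. The part of choroid plexus or of these other cell types in the regional difference was not tested. Of 6 skeletal muscle markers, 5 stayed under 1 FPKM in every library, and their sum lay between 3.41 and 7.01 FPKM.

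**Figure D5:**
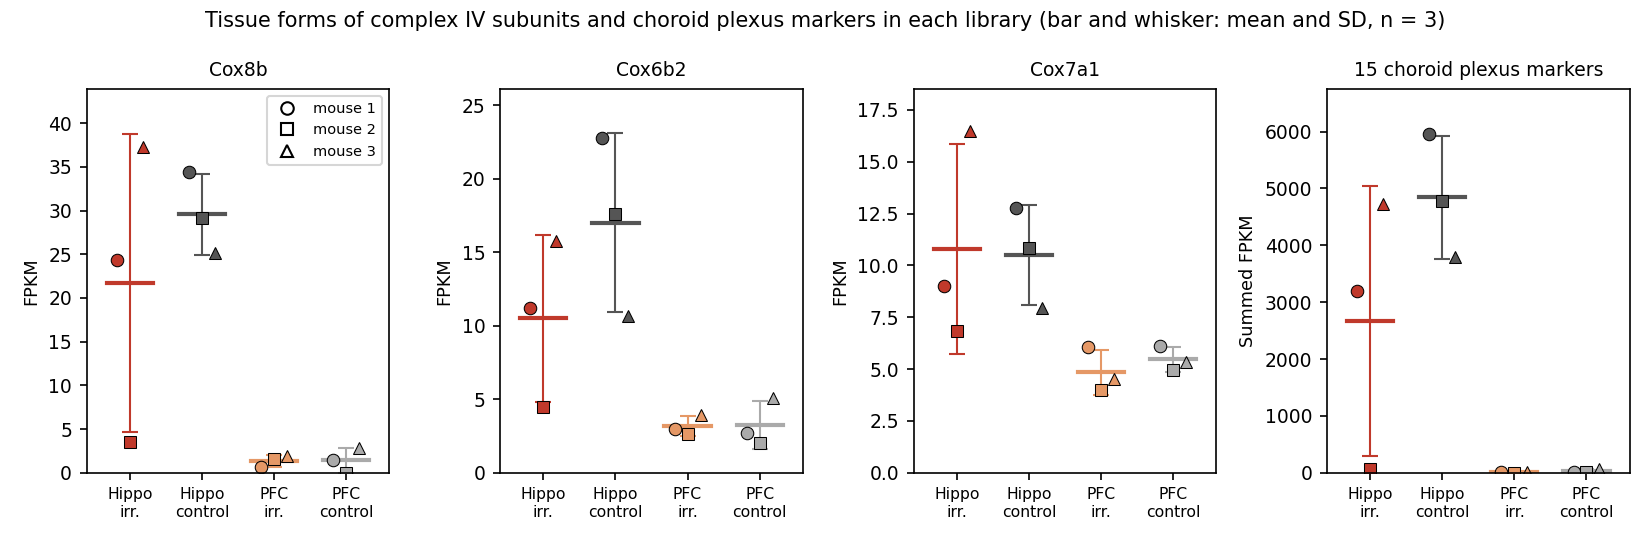
FPKM of Cox8b, Cox6b2 and Cox7a1 and the summed FPKM of 15 choroid plexus markers in each library, with groups on the horizontal axis as Hippo (hippocampus) and PFC (prefrontal cortex), symbols for the mouse, bars for the mean and whiskers for the SD (n = 3). In irradiated hippocampus all 4 panels have mouse 2 lowest, at 3.48 FPKM for Cox8b and 67.7 for the marker sum. Ttr alone makes up most of the marker sum in every hippocampus library.

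The widely expressed partner of each tissue form was far more abundant. Cox6a2, the heart and muscle form of subunit 6a, lay between 5.39 and 12.0 FPKM over all libraries, and Cox6a1 between 625 and 977. Cox6b1, the general form of subunit 6b, lay between 439.9 and 695 FPKM, Cox7b between 107 and 169, and Cox7a2l, a relative of subunit 7a known for its part in joining complexes III and IV, between 128 and 189. Ndufa4 lay between 413 and 711 FPKM. Its paralog Ndufa4l2 was at 1.01, 1.53 and 1.38 in control hippocampus and 2.43, 2.08 and 2.61 in control prefrontal cortex, a difference of -0.55 ± 0.12 (adjusted p = 0.00724), and was the 1 member lower in hippocampus. In irradiated hippocampus it was at 2.26, 2.13 and 1.39 FPKM and in irradiated prefrontal cortex at 2.69, 2.11 and 1.98.

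General subunits differed less between the regions. Ndufa12, an accessory subunit of complex I, was at 275, 263 and 239 FPKM in control hippocampus and 208, 194 and 208 in control prefrontal cortex, a difference of 0.35 ± 0.07 (adjusted p = 0.00492). Cox7c was at 511, 490.4 and 476 against 393, 415 and 423 (0.26 ± 0.06, adjusted p = 0.0106), and Atp5g1 at 244, 222 and 213 against 197, 175 and 186 (0.28 ± 0.07, adjusted p = 0.017). Each of these 3 genes was higher in all hippocampus libraries of control mice. Sdhc was at 108, 95.5 and 94.3 against 82.3, 83.2 and 86.8 (0.23 ± 0.07, adjusted p = 0.0286), Ndufa1 at 230.3, 184 and 178 against 156, 154 and 167 (0.31 ± 0.10, adjusted p = 0.0389) and Ndufb11 at 153, 139.5 and 126 against 119, 114 and 122 (0.23 ± 0.08, adjusted p = 0.0463). Leaving out control mouse 1 or 2 in hippocampus or control mouse 2 in prefrontal cortex ended the call of Atp5g1, Sdhc, Ndufa1 and Ndufb11, with differences down to 0.23, 0.17, 0.19 and 0.17. Sdhc also lost it without control mouse 1 in prefrontal cortex, and Ndufa1 and Ndufb11 without control mouse 1 or 3 there. The members called were 6 without any of the first 3 libraries and 16 without control mouse 3 in hippocampus. A fit over all 12 libraries called 7 members, and 6 of the 10 were among them: Cox7c, Sdhc, Ndufa1 and Ndufb11 were not. Ndufa1 and Ndufb11 were also not called without the level filter or with the trend with length removed, and Ndufb11 not under median-of-ratios scaling. With hippocampus and prefrontal cortex of the same mouse as a block, 14 members were called in place of 10.

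The other lists of pathway genes had smaller median differences than the members as a whole, and none of their genes passed the test in either region. Of 8 tested subunits outside the symbol rule, the medians were -0.10 in hippocampus and -0.12 in prefrontal cortex. Cox4i1, the general form of subunit 4 of complex IV, was at 908, 787 and 980 FPKM against 1152, 1019 and 953 in hippocampus and 987, 699 and 1016 against 1010, 930.2 and 987 in prefrontal cortex. Its lung form Cox4i2 lay between 0.888 and 3.80 FPKM in all libraries. Usmg5, a small protein of ATP synthase, was at 793, 757 and 955 against 1069, 976 and 948 FPKM in hippocampus, and Cyc1, cytochrome c1 of complex III, at 132, 128 and 141 against 144, 138 and 130.3. Both overlapped between the groups.

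Of 51 assembly factors, the proteins that build the complexes and are not part of them, 7 were lower at an unadjusted p under 0.05 in hippocampus (13.7%, against 5.81% of all genes), with a median of -0.09. In prefrontal cortex 5 were lower (9.80%, against 4.79%) and 1 higher (1.96%, against 2.44%), with a median of -0.06. Cox17, which carries copper to complex IV, was at 152, 152 and 176 FPKM against 214, 188 and 189 in hippocampus and 202, 126 and 189 against 206, 190.1 and 211 in prefrontal cortex. Ndufaf2, an assembly factor of complex I, was at 24.99, 21.6 and 25.7 against 30.2, 29.8 and 35.8 FPKM in prefrontal cortex, and Higd2a, a factor of complex IV assembly, at 106, 94.3 and 109 against 120.2, 125 and 121. The irradiated libraries of these 3 genes were below the controls in the regions named, except for Cox17 in prefrontal cortex. The genes were picked by smallest p, and 8.16% of all genes in hippocampus and 7.44% in prefrontal cortex were lower without overlap.

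Of 14 transcriptional regulators of mitochondrial genes the medians were 0.00 in hippocampus and 0.02 in prefrontal cortex. Ppargc1b, a coactivator of these genes, was at 3.57, 3.67 and 3.39 FPKM in irradiated hippocampus and 2.45, 2.52 and 3.16 in controls (0.30 ± 0.10), and its relative Pprc1 at 4.02, 4.72 and 3.97 against 3.39, 3.52 and 3.84. Their irradiated libraries were above all controls, as in 7.41% of all genes, and up to 3 genes of this list were picked by smallest p. Nrf1 was at 4.40, 4.52 and 4.45 against 4.58, 4.73 and 4.58 FPKM. Tfam, which packs and transcribes mitochondrial DNA, was at 8.69, 9.04 and 9.12 against 9.87, 9.90 and 9.36. Both were below all controls by a narrow margin, and 8.16% of all genes were lower without overlap. Yy1 was at 23.0, 20.3 and 21.9 FPKM in irradiated prefrontal cortex and 18.4, 20.2 and 19.0 in controls. Of these regulators 1 was higher in hippocampus at an unadjusted p under 0.05 (7.14%, against 4.7% of all genes).

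Of 18 enzymes of the tricarboxylic acid cycle, which feeds the chain with NADH and succinate, the medians were -0.06 in hippocampus and 0.02 in prefrontal cortex. Idh3g, a subunit of isocitrate dehydrogenase, was at 77.4, 81.4 and 82.4 FPKM in irradiated prefrontal cortex and 91.8, 88.0 and 93.2 in controls. Dld, a subunit shared by several dehydrogenases, was at 57.5, 57.7 and 57.9 against 60.9, 60.1 and 64.5 in hippocampus, and Fh1, fumarase, at 44.5, 43.8 and 45.8 against 48.8, 47.2 and 46.2. The groups of these 3 genes did not overlap in the regions named, but the genes were picked by smallest p. Of all genes, 8.16% in hippocampus and 7.44% in prefrontal cortex were lower without overlap. Of 19 genes of mitochondrial membrane shape and protein import the medians were -0.04 and -0.02, with Opa1, which fuses inner membranes, at 37.0, 37.6 and 37.2 FPKM against 29.96, 36.8 and 33.7 in prefrontal cortex.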

How the data were processed

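Hippocampus and prefrontal cortex of 6 mice were sequenced as 12 libraries of a directional NEBNext Ultra II kit, per the labels' protocols. The submitters' processing notes name TopHat as a tool and mm10 as the build. The sources used here do not say how reads were counted, on which annotation or with use of strand. The deposited tables name no unit. Their values were taken as FPKM computed by the authors, since they are not whole numbers and, multiplied by transcript length, in kilobases gave sums of 1.22 to 1.27 M (mega). FPKM are relative to a library's total, so abundant genes move all others. Counts were not used here, and relative depth was estimated from the smallest steps of 2764 genes below 0.3 FPKM. It gives no counting error per gene.

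The test was limma-trend (limma 3.58.1, R 4.3.3) on log2(FPKM + 1), two-sided, for genes averaging 1 FPKM or more, with Benjamini-Hochberg adjustment over all genes and a threshold of 0.05. It was checked on simulated data. The 4 comparisons were irradiated against control in each region, the difference of these effects, and the regions in control mice. Alternatives were other scalings, a pseudocount of 0.1, no level filter, robust moderation, a fit over all libraries, removal of the trend with length, a replicate block and leaving out each library. The mean of both regions per mouse and the omission of irradiated mouse 2 in both regions were added after seeing the data. The members and lists were chosen with earlier results of these data known. Named genes are those past the threshold, filled to 5 per comparison by smallest p, and paralog forms. Also named are the highest level and largest difference per complex, and up to 3 genes of smallest p per other list. A few further genes were named after their values were seen.

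Positions, lengths and overlaps come from GENCODE M21 (mm10), which matched 22797 of 23183 symbols. Atp5sl was matched through a synonym. Of the 82 members, 28 overlap a gene on the opposite strand and 11 one on the same strand, and 25 share at least 200 bases at 95% identity with another gene, so their values may include other reads.

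The deviations of the 2 libraries of a mouse from their group means, over genes, correlated at 0.174 to 0.3 in irradiated mice and -0.00601 to 0.29 in controls. Irradiated and control mice with the same number correlated at 0.117 to 0.141 in prefrontal cortex and -0.16 to 0.103 in hippocampus. The labels pair only libraries of the same mouse.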

Additional observations from a re-analysis of the deposited data

How the results depend on the processing

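In hippocampus and prefrontal cortex 0 respiratory chain genes were called under every setting run, the replicate block included. For all genes, hippocampus had 0 called, 4 with equal totals, 3 with robust moderation, 1 in the fit over all libraries and 0 to 1 when single libraries were left out. Prefrontal cortex had 1, and 2 without the level filter, 0 in the fit over all libraries and 1 to 4 when single libraries were left out. The difference of the effects had 0, with 1 without the level filter, 1 without irradiated mouse 2 in both regions and 0 to 2 when single libraries were left out. Between the regions, 10 respiratory chain genes were called, 6 when only general subunits were counted, 7 in the fit over all libraries and 6 to 16 when single libraries were left out (6 without control mouse 1 or 2 in hippocampus or control mouse 2 in prefrontal cortex, 16 without control mouse 3 in hippocampus). The cause was not tested. Within a region the replicate block joined irradiated and control mice of the same number, which are different animals and no true pairs. With it 0 genes were called in hippocampus. The members lower at an unadjusted p under 0.05 went from 20 to 30 in prefrontal cortex (all genes, 4.79% to 6.04%). In hippocampus they went from 17 to 9 (all genes, 5.81% to 4.42%). Between the regions, where the block joined libraries of the same mouse, the members called went from 10 to 14. Cox8b ran from -1.51 to 0.038 in hippocampus, positive without irradiated mouse 2. Sdhb in prefrontal cortex ran from -0.029 to 0.15 with single libraries left out, against 0.04, and was negative without irradiated mouse 3 (-0.029) and without control mouse 2 (-0.0045). Of 954 recomputed values 26 region differences lost their call, and 3 values of the single genes Cox8b and Sdhb changed sign. In 21 values a count of called genes moved by over 1.5 times, or to or from 0. In 8 values the median of a complex moved by more than the spread of the libraries within groups. A further 33 medians changed sign, 29 of them in the difference of the effects, where the median is near 0. Another 122 values kept sign and side of the threshold but moved by over 1.5 times, 25 of them with the length trend removed and 13 with equal totals. The values carry no counts, so no counting error could be given.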
